A study of Mus musculus with 2 samples.

Results

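The genes described here are 7 transcription factors of the exocrine pancreas, chosen by symbol from the 31053 genes of the count tables: the acinar factors Rbpjl, Bhlha15, Ptf1a, Nr5a2 and Gata4 and the ductal factors Sox9 and Onecut2. Their unique molecular identifiers (UMIs, each standing for 1 captured RNA molecule) were counted in single cells of the pancreas. The mice, R26[CA]30EYFP of strain C57Bl/6J, are described in the labels by "None" as treatment, and the cells as taken after pancreatitis. In these mice a yellow fluorescent reporter at the Rosa26 locus is held out of frame by a run of 30 CA repeats and can come into frame when the repeat slips during replication. Cells sorted as EYFP positive made 1 library and cells sorted as EYFP negative made the other, both from the same genotype and treatment. The sources used here give neither how many animals were used nor how long after pancreatitis the cells were taken, and the count tables hold no reporter gene against which the sort could be checked. With 1 library per group nothing was tested: the intervals given are exact 95% intervals that cover counting error only, and cells of 1 library are not replicates.

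Acinar cells make and secrete the digestive enzymes, and duct cells carry them to the gut. In acinar cells Ptf1a binds DNA together with an E protein and the DNA-binding protein Rbpjl as the PTF1 complex, which drives the enzyme genes. Rbpjl is the acinar form of Rbpj, the DNA-binding protein of the Notch pathway. Bhlha15 (Mist1) sets up the secretory apparatus, and Nr5a2 and Gata4 are a nuclear receptor and a zinc-finger factor that act with PTF1. Sox9 and Onecut2 are known from duct cells and their progenitors, and Sox9 is known to appear in acinar cells that lose their identity after injury.

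The EYFP positive library held 1717 barcodes with 4006807 UMIs and the EYFP negative library 745 barcodes with 5295816 UMIs. Barcodes that had 200 or more genes and no more than 20% of UMIs from mitochondrial genes were analysed further, 860 at a median of 1007.5 UMIs and 553 at a median of 8020 UMIs. Kept cells fell into 18 clusters that were made and named without the 7 factors. In the EYFP positive library 89 cells were acinar-like, 225 ductal-like and 546 of other classes (T, B, NK, fibroblast, endothelial and macrophage-like), and in the EYFP negative library 1, 2 and 550. Each epithelial class held a pair of clusters. The acinar-like pair was a low-secretory cluster (58 cells, median 2093 UMIs, 5.71% of UMIs from 36 acinar secretory genes) and a high-secretory one (31 cells, median 2583 UMIs, 68.0% secretory). The ductal-like pair was a low-UMI cluster (197 cells, median 762 UMIs) and a high-UMI one (28 cells, median 16888 UMIs).

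The class names rest on unequal evidence. The low-secretory acinar-like cluster had all 14 fixed acinar markers at least 2-fold above the median of the other clusters, and Ctrc and Cel were among its leading genes beside Nupr1, Sel1l and Col7a1. Its 14 acinar markers together took 3.86% of UMIs, against 2.75% in the low-UMI ductal-like cluster, where acinar secretory RNA made up 4.07% of all UMIs. Ctrb1, a chymotrypsinogen, stood at 4646 CPM (a gene's share of the summed UMIs of the cells, scaled to 1000000) in the low-secretory cluster and at 6788 CPM in the low-UMI ductal-like one. Cela1, an elastase, stood at 8122 and 2364 CPM. The low-UMI ductal-like cluster also held a barcode with 53707 UMIs of which 21498 were Ppy, the hormone of islet PP cells, with 0 UMIs of each of the 7 factors.

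The libraries shared 4 barcode sequences. In each pair the EYFP positive copy was shallow (845 to 1058 UMIs) and the EYFP negative copy deep (37662 to 70711 UMIs), and nearly every gene of the shallow copy was also found in the deep one (691 of 692 in the pair with the deepest copy). That deepest copy is 1 of the 2 EYFP negative ductal-like cells and held 179 of the 195 kept Sox9 UMIs of its library. Its shallow copy, with 1 Sox9 UMI, lies in the low-UMI ductal-like cluster. Sox9, Nr5a2 and Onecut2 in the EYFP negative library are therefore given with and without these barcodes.

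Rbpjl (ENSMUSG00000017007, GRCm38 chr2:164403141-164415448, plus strand) was found almost wholly in the EYFP positive library. It gave 568 UMIs in 95 of 860 kept EYFP positive cells (207 CPM, 190 to 225) and 0 UMIs in 553 kept EYFP negative cells. A floor of 3 in place of that 0 gives 0.618 CPM and 0.542% of cells. The exact upper limits are 0.759 CPM and 0.665% of cells. Against a floor of 3 UMIs over the library, Rbpjl was at least 335-fold higher in EYFP positive cells. Among the 192 EYFP negative barcodes that were not kept there was 1 Rbpjl UMI. This fold mixes the number of acinar-like cells sorted (89 and 1) with the level in each, and the 2 cannot be told apart in it.

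Within the EYFP positive library Rbpjl was concentrated in the low-secretory acinar-like cluster. There it gave 503 UMIs in 53 of 58 cells (3525 CPM, 3223 to 3847), with a lowest, median and highest value of 0, 6 and 36 UMIs per cell. The high-secretory cluster gave 29 UMIs in 11 of 31 cells (232 CPM, 156 to 333), with 0, 0 and 6 UMIs per cell. The low-secretory level was 15.2-fold the high-secretory one (10.4 to 22.9), and 3.87-fold when secretory, mitochondrial and ribosomal protein genes were left out of the totals. The 5 low-secretory cells with no Rbpjl UMI were shallow, at a median of 899 UMIs against 2171 in the 53 others.

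**Figure D1:**
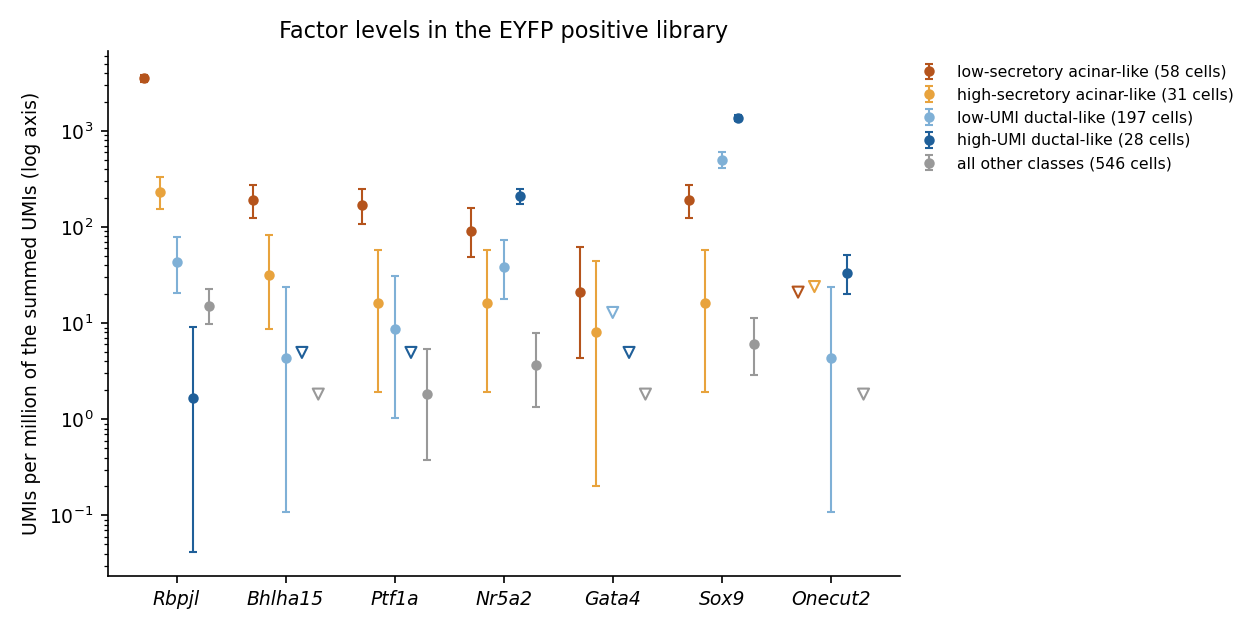
Summed level of each factor (CPM, log axis) in 5 sets of EYFP positive cells. Points are levels, bars exact 95% counting intervals, and open triangles mark a floor of 3 UMIs where the count was 0. Rbpjl is highest in low-secretory acinar-like cells (3525), Sox9 in high-UMI ductal-like cells (1359), and Nr5a2 in high-UMI ductal-like cells (210).

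In ductal-like cells Rbpjl was far below its level in low-secretory acinar-like cells. It gave 10 UMIs in 9 of 197 low-UMI ductal-like cells (43.1 CPM, 20.7 to 79.2) and 1 UMI in 1 of 28 high-UMI ones (1.65 CPM, 0.0419 to 9.21). Other classes gave 25 UMIs in 21 of 546 cells (15.2 CPM, 9.86 to 22.5), among them 12 UMIs in 10 of 230 T-like cells. A T-like cluster about as shallow as the low-UMI ductal-like one (129 cells, median 710 UMIs) gave 6 UMIs (53.6 CPM, 19.7 to 117). As a share, Rbpjl was found in 4.44% of ductal-like cells (2.15 to 8.02, median 801 UMIs per cell). It was found in 4.35% of T-like cells (2.104 to 7.85), which were deeper (median 1194 UMIs). Whether the ductal-like UMIs came from the cells themselves was not tested. Over both clusters of each class, Rbpjl was 151-fold higher in acinar-like than in ductal-like cells (83.9 to 305). This fold was 17.7 without the low-secretory cluster, 46.2 without the high-UMI ductal-like and 1203 without the low-UMI ductal-like cluster.

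The ratio of Rbpjl to enzyme RNA separated the low-secretory cells from every other set of cells. Per 1000 acinar secretory UMIs there were 61.7 Rbpjl UMIs in that cluster (56.4 to 67.3) and 0.341 in the high-secretory cluster (0.229 to 0.490). The ratio was 1.06 in low-UMI ductal-like cells (0.507 to 1.95) and 1.63 in other classes (1.06 to 2.41). In high-UMI ductal-like cells it was 0.399 (0.0101 to 2.22). The low-secretory interval overlaps none of these, while those of the ductal-like clusters and of other classes overlap each other. Within the low-secretory cluster, the Rbpjl CPM of a cell and its secretory share had a Pearson r of -0.04 and a Spearman rho of -0.06 (58 cells). Within the high-secretory cluster r was -0.48 and rho -0.43 (31 cells), and -0.32 for r without secretory, mitochondrial and ribosomal protein genes in the total. These cells share a library, and in a cell with more secretory UMIs every other gene has a smaller share, so the values are descriptions.

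**Figure D2:**
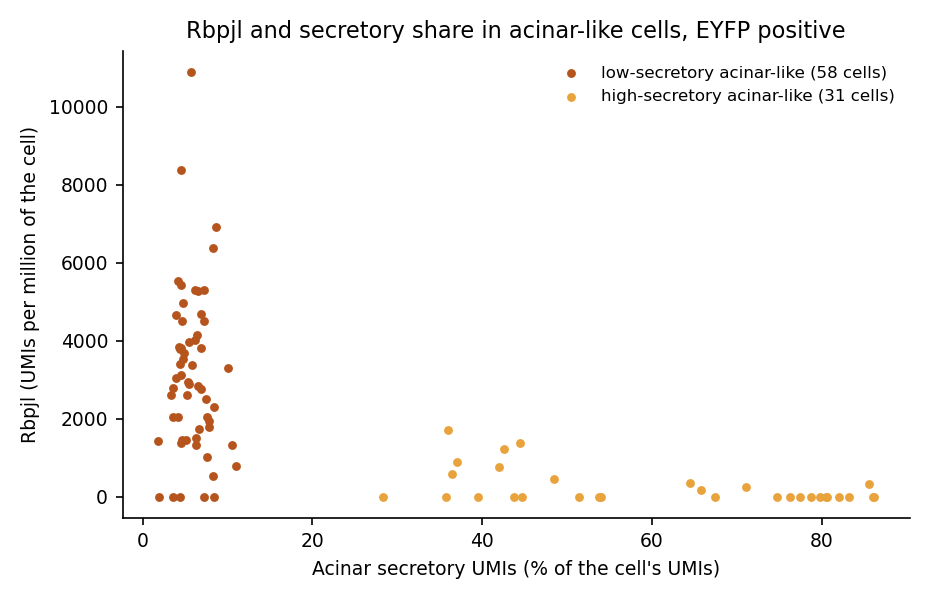
Each point is an EYFP positive acinar-like cell, with the share of its UMIs from secretory genes on the x axis (percent) and its Rbpjl level on the y axis (CPM of that cell). Low-secretory cells lie between 1.87% and 11.0% secretory and reach 10898, and high-secretory cells lie between 28.3% and 86.1% and reach 1705.

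Bhlha15 and Ptf1a also had their highest CPM in low-secretory acinar-like cells, at far fewer UMIs. Without secretory, mitochondrial and ribosomal protein genes in the totals, the low-secretory level of Bhlha15 was 1.51-fold the high-secretory one (0.525 to 5.93). That of Ptf1a was 2.68-fold (0.665 to 23.4). Neither interval places the acinar-like clusters in order. Bhlha15 (ENSMUSG00000052271, chr5:144190286-144194441, plus strand) gave 27 UMIs in 19 of 58 low-secretory cells (189 CPM, 125 to 275) and 4 UMIs in 3 of 31 high-secretory cells (32.0 CPM, 8.73 to 82.0). Ductal-like cells gave 1 Bhlha15 UMI and the EYFP negative library 1, in a T-like cell. The 546 cells of other classes held no Bhlha15 UMI (a floor of 3 UMIs would be 1.83 CPM). Bhlha15 was 97.0-fold higher in acinar-like than in ductal-like cells (16.2 to 3952), an interval whose width comes from the single ductal-like UMI.

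Ptf1a (ENSMUSG00000026735, chr2:19445663-19447501, plus strand) gave 24 UMIs in 15 of 58 low-secretory cells (168 CPM, 108 to 250) and 2 UMIs in 2 of 31 high-secretory cells (16.0 CPM, 1.94 to 57.9). It gave 2 UMIs in ductal-like cells, 3 in other classes and 0 in the EYFP negative library. The fold of acinar-like over ductal-like cells was 40.7 (10.2 to 354). Gata4 (ENSMUSG00000021944, chr14:63198922-63271692, minus strand) gave 4 UMIs in all, each in a different acinar-like cell, and 0 in ductal-like cells, other classes and EYFP negative cells. At that depth a Gata4 difference between the acinar-like clusters (3 and 1 UMIs) was not detectable.

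The acinar factors were found together in single low-secretory cells. Of those 58 cells, 5 held none of the 5 acinar factors, 20 held 1, 22 held 2, 8 held 3 and 3 held 4. In each cell with a Bhlha15, Ptf1a, Nr5a2 or Gata4 UMI in this cluster there was also an Rbpjl UMI. Rbpjl was found in 53 of the 58 cells, so this overlap says little about pairing. In the high-secretory cluster 5 of 31 cells held 2 or more acinar factors. Bhlha15 and Ptf1a themselves overlapped in 4 cells of the low-secretory cluster, with Ptf1a found in 21.1% of cells with Bhlha15 and in 28.2% of cells without it. Cells with a Ptf1a UMI were deeper (median 3998 UMIs) than those without (1855), and the part of depth in these shares was not tested.

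Counts of Rbpjl and Ptf1a could hold reads of genes on the opposite strand, since no source used here says whether counting used strand. Matn4 overlaps exons of Rbpjl and Ptf1aos overlaps exons of Ptf1a. In the low-secretory cluster Matn4 gave 6 UMIs beside 503 of Rbpjl, and Ptf1aos gave 0 beside 24 of Ptf1a.

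By CPM, 3 acinar factors were highest in the same cells and Nr5a2 in other cells. The stretches before their start sites are shown so that their motifs can be compared. They are RefSeq promoter windows on GRCm38.p6, read 5′ to 3′ on the gene's strand, and capitals mark any match to 7 motifs searched on both strands: E-box CANNTG, bound by dimers such as Ptf1a with an E protein or Bhlha15; TC-box TTTCCCA and its core TGGGAA, bound by Rbpjl and Rbpj; AGATAA for Gata4; CAAGGTCA for Nr5a2; ACAAAG for Sox9; and ATCAAT for Onecut2. The TC-box contains the core on its other strand. The RefSeq table gave windows for 4 of the 7 members, chr2:164402944-164403140 (Rbpjl, without its last 53 bases, which GENCODE puts inside the gene), chr5:144190036-144190285 (Bhlha15), chr2:19445413-19445662 (Ptf1a) and chr1:136960449-136960698 (Nr5a2, minus strand). Nr5a2 has 2 windows in that table, and the other, which lies within the gene, was searched but is not printed.
Rbpjl: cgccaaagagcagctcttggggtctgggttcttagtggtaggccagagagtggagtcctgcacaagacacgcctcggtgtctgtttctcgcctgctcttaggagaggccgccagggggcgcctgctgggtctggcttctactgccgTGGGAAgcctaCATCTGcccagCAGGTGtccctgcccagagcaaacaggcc
Bhlha15: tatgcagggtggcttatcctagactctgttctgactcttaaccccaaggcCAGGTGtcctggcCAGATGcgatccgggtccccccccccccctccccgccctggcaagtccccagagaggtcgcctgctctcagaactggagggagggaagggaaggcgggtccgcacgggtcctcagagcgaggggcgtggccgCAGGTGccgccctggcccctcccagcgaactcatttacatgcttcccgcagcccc
Ptf1a: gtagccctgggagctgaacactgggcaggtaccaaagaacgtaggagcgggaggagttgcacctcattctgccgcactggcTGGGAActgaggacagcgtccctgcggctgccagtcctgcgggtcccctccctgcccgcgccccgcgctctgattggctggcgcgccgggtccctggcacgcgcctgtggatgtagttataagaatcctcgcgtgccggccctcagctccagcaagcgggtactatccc
Nr5a2: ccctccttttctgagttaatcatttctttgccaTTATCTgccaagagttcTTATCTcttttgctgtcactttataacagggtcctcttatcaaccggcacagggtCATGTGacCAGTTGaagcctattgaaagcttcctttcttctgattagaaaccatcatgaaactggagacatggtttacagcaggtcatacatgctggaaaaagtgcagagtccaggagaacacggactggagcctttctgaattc

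The Rbpjl window held a core match TGGGAA starting at -104 and E-boxes starting at -93 and -82 from the RefSeq start. Its GATA match at -31 lies in the bases not printed. The Bhlha15 window held 3 E-boxes and the Ptf1a window 1 core match. The printed Nr5a2 window held 2 E-boxes and 2 GATA matches on the opposite strand. The other Nr5a2 window held 3 E-boxes, starting at -85, -66 and -50, 1 Sox9 motif at -175 and 0 GATA matches. Among 32851 windows of the same 250 bases, 66.2% held an E-box, 21.6% the core, 6.82% the TC-box, 9.99% the GATA motif, 1.33% the Nr5a2 motif, 16.5% the Sox9 motif and 6.72% the Onecut2 motif. A match is a description of letters, not a site.

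Nr5a2 (ENSMUSG00000026398, chr1:136842571-136960448, minus strand), listed with the acinar factors, was at its highest in ductal-like cells. It was found in 28 of 28 high-UMI ductal-like cells, with 127 UMIs (210 CPM, 175 to 250) and a lowest, median and highest count of 1, 4 and 16 UMIs per cell. The low-secretory acinar-like cluster gave 13 UMIs in 10 of 58 cells (91.1 CPM, 48.5 to 156), and the high-secretory cluster 2 UMIs in 2 of 31 cells (16.0 CPM, 1.94 to 57.9). Low-UMI ductal-like cells gave 9 UMIs in 8 of 197 cells (38.8 CPM, 17.7 to 73.6), and other classes 6 UMIs in 6 of 546 cells (3.66 CPM, 1.34 to 7.96). The high-UMI ductal-like and low-secretory acinar-like levels stood above those of other classes. The low-UMI ductal-like level did so too over all other classes, but its interval overlaps that of the shallow T-like cluster (3 UMIs in 129 cells, 26.8 CPM, 5.52 to 78.3).

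The order of acinar-like and ductal-like cells for Nr5a2 depended on which clusters were used. Over both clusters of each class it was 2.90-fold higher in ductal-like cells (1.70 to 5.32). Without secretory, mitochondrial and ribosomal protein genes in the totals this fold was 1.97 (1.15 to 3.62). Over all genes the median log2 fold of acinar-like over ductal-like cells was -1.02, so the typical gene was also higher in ductal-like cells. The high-UMI ductal-like level was 2.30-fold the low-secretory acinar-like one (1.30 to 4.45). The low-UMI ductal-like level was 0.425 times the low-secretory one, with an interval of 0.161 to 1.08 that does not place them in order. Without the high-UMI cluster the fold of ductal-like over acinar-like turned to 0.692 (0.267 to 1.69), and without the low-secretory cluster it was 10.15.

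Sox9 (ENSMUSG00000000567, chr11:112782224-112787760, plus strand) marked the ductal-like cells. High-UMI cells gave 822 UMIs in 28 of 28 cells (1359 CPM, 1268 to 1455), with a lowest, median and highest count of 2, 26 and 93 UMIs per cell. Low-UMI cells gave 116 UMIs in 72 of 197 cells (500 CPM, 413 to 599), from 0 to 6 UMIs per cell. Without the barcode rich in Ppy, the low-UMI level was 650 CPM (537 to 780). Other classes gave 10 UMIs in 9 of 546 cells (6.10 CPM, 2.92 to 11.2), below both ductal-like clusters with no overlap of intervals. Sox9 was 2.72-fold higher in the high-UMI than in the low-UMI cluster (2.24 to 3.33) and 10.3-fold higher in ductal-like than in acinar-like cells (7.15 to 15.5). That last fold was 4.61 without the high-UMI ductal-like cluster, 5.92 without the high-secretory and 69.97 without the low-secretory acinar-like cluster. It was 19.1 with a stricter filter on barcodes (500 genes, 10% mitochondrial UMIs), under which only 28 EYFP positive cells were named ductal.

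Onecut2 (ENSMUSG00000045991) gave 20 UMIs in 6 of 28 high-UMI ductal-like cells (33.1 CPM, 20.2 to 51.1) and 1 UMI in 1 of 197 low-UMI ones (4.31 CPM, 0.109 to 24.0). It gave 0 UMIs in 89 acinar-like cells and in 546 cells of other classes. A count of 0 allows up to 21.0 CPM in low-secretory and 24.0 CPM in high-secretory acinar-like cells, so depth there reaches about the level of the high-UMI ductal-like cluster and little below it. Of the 20 UMIs, 19 came from 5 cells. The low-UMI cell with Onecut2 held neither Sox9 nor Nr5a2 but 1 Ptf1a UMI. Over the 28 high-UMI cells, the CPM of Sox9 and of Nr5a2 had a Pearson r of 0.22 and a Spearman rho of 0.13.

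Sox9 was also found in low-secretory acinar-like cells, above its level in other classes. The low-secretory cluster gave 27 Sox9 UMIs in 12 of 58 cells (189 CPM, 125 to 275), a share of 20.7% of cells (11.2 to 33.4, median 2093 UMIs) against 1.65% of cells of other classes (0.756 to 3.11, median 1012 UMIs). Of the 12 cells, 9 held 1 Sox9 UMI, 1 held 2, 1 held 3 and 1 held 13. Without the cell with 13, the cluster's level was 103 CPM (56.2 to 172), whose interval lies above that of other classes pooled. This interval overlaps that of the shallow T-like cluster (3 Sox9 UMIs in 129 cells, 26.8 CPM, 5.52 to 78.3). The interval with that cell (125 to 275) does not. The high-secretory cluster gave 2 Sox9 UMIs in 2 of 31 cells (16.0 CPM, 1.94 to 57.9), an interval that overlaps that of other classes.

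Duct cell markers were few in these cells, with or without Sox9. In the low-secretory cluster 8 of the 12 fixed ductal markers were detected, together 101 UMIs or 0.0708% of UMIs, and Krt19, Krt7, Cldn4 and Cftr were at 0. Cells with Sox9 held from 0 to 6 ductal marker UMIs (0.0629% in sum, n = 12) and cells without Sox9 from 0 to 8 (0.0749% in sum, n = 46). High-UMI ductal-like cells held from 230 to 2160 ductal marker UMIs (3.51% in sum). The ratio of Sox9 to ductal markers was 267 per 1000 marker UMIs in low-secretory cells (176 to 389) and 140 without the cell with 13 Sox9 UMIs (76.5 to 235). It was 38.7 in high-UMI ductal-like cells (36.1 to 41.5), 39.8 in low-UMI ones (32.9 to 47.7) and 35.0 in other classes (16.8 to 64.3). The low-secretory ratio was thus 6.90-fold the high-UMI ductal-like one (4.52 to 10.1). The pooled ratio of other classes overlapped the ductal-like ratios. By class, the ratio was 83.3 in T-like (22.7 to 213), 95.2 in endothelial-like (11.5 to 344) and 167 in fibroblast-like cells (20.2 to 602). These rest on 4, 2 and 2 Sox9 UMIs, and their intervals overlap the low-secretory one. Those of B, NK and macrophage-like cells lie below it (upper limits 119, 34.8 and 107). A high ratio is therefore not shown to be particular to low-secretory cells.

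**Figure D3:**
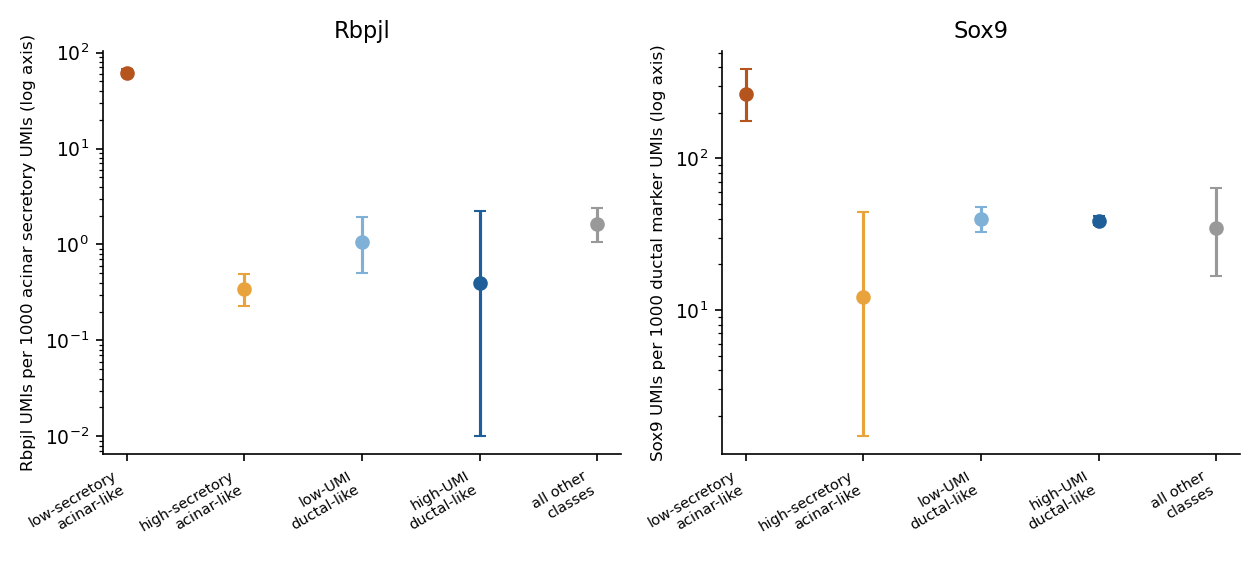
Left, Rbpjl UMIs per 1000 acinar secretory UMIs, and right, Sox9 UMIs per 1000 UMIs of 12 ductal markers, in 5 sets of EYFP positive cells (log axes, bars are exact 95% counting intervals). Low-secretory acinar-like cells stand highest in both, at 61.7 and 267.

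Acinar factors were found in the low-secretory cells with Sox9 as in those without. Rbpjl stood at 3206 CPM in the 12 cells with Sox9 (2725 to 3746) and at 3693 CPM in the 46 without (3314 to 4104), intervals that overlap. Ptf1a stood at 162 and 171 CPM and Bhlha15 at 122 and 225 CPM in the same order, again with overlapping intervals. Nupr1, a stress-induced nuclear protein, stood at 12924 CPM (11939 to 13967) and 9881 CPM (9254 to 10539). Cells with Sox9 were deeper, at a median of 3109 UMIs against 1799. The cell with 13 Sox9 UMIs also held the most Rbpjl of any kept cell, 36 UMIs, with 5 Ptf1a UMIs, 1 Nr5a2 UMI and 1 ductal marker UMI among 6520 UMIs. Scrublet called none of the 58 cells a doublet.

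An acinar and a ductal factor were found in 1 barcode in 51 of 860 kept EYFP positive cells (5.93%, 4.45 to 7.72). Most of these barcodes were high-UMI ductal-like cells: all 28 held Sox9 with Nr5a2. Without counting Nr5a2 as an acinar factor the number was 21, of which 14 were acinar-like, 5 ductal-like and 2 of other classes. All 14 acinar-like cells with a ductal factor also held an acinar factor, and in each the pair was Rbpjl with Sox9. Scrublet called 1 of the 51 a doublet, an endothelial-like cell.

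The acinar-like and ductal-like cells in this group were unlike in their counts. In low-secretory acinar-like cells Rbpjl ran from 1 to 36 UMIs beside 1 to 13 of Sox9. In the 5 ductal-like cells Rbpjl or Ptf1a was at 1 or 2 UMIs, in 4 of them beside ductal marker shares of 1.24% to 3.36%, and in the high-UMI cell with 90166 UMIs beside 85 Sox9 UMIs. When at least 2 UMIs of a factor were asked for, 26 barcodes remained in the count, 3 of them without Nr5a2, and 2 were acinar-like. Of the low-secretory cells with an Rbpjl UMI, 22.6% held Sox9 (12 of 53, 12.3 to 36.2). Of the 5 cells without Rbpjl 0 did (up to 52.2%), and these intervals overlap. Those 5 cells were also shallower (median 899 against 2171 UMIs).

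**Figure D4:**
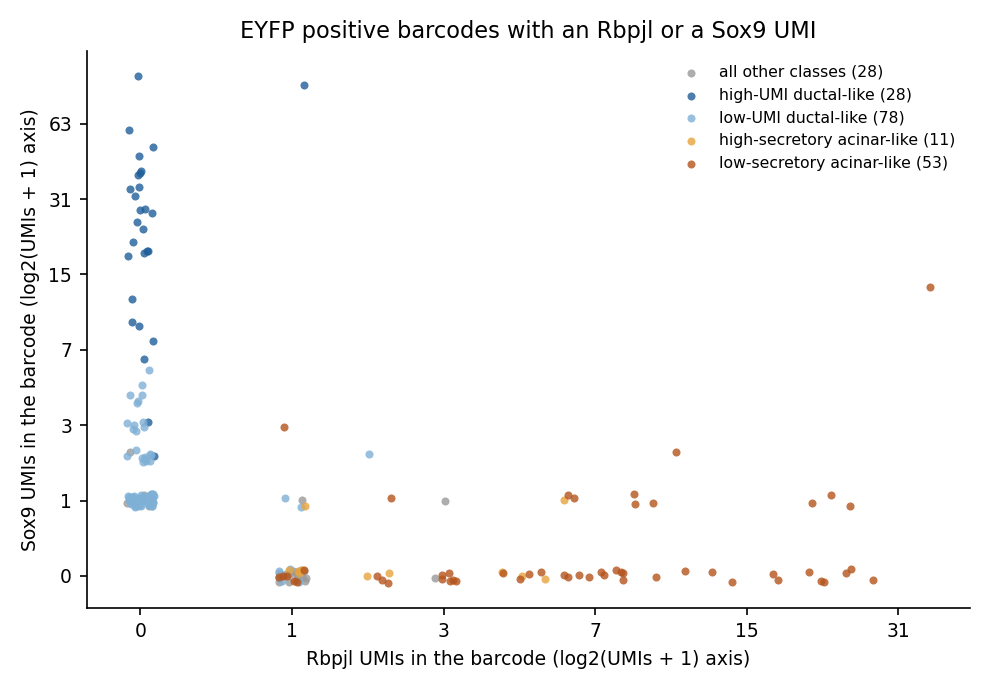
Rbpjl UMIs (x) and Sox9 UMIs (y) per barcode on log2(UMIs + 1) axes, for EYFP positive barcodes with at least 1 of either, with small random offsets so that points do not hide each other. Low-secretory acinar-like cells spread along the x axis up to 36 and ductal-like cells along the y axis up to 93, and the cell at 36 Rbpjl and 13 Sox9 UMIs stands alone.

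Co-detection was more frequent in deeper cells. Among low-secretory cells, none of the 12 below 1000 UMIs held a ductal factor, against 2 of 16 from 1000, 6 of 24 from 2000 and 4 of 6 from 5000 UMIs. Thinned to 1000 UMIs each, 13 EYFP positive cells held both kinds of factor, 5 of them acinar-like, and thinned to 500 UMIs 7 did. After thinning to 1000 UMIs, Sox9 was found in 6 of 46 low-secretory cells (13.0%, 4.94 to 26.3, with 12 shallower cells left out) and in 2 of 278 cells of other classes (0.719%, 0.0872 to 2.57, with 268 left out). It was found in 19 of 28 high-UMI (67.9%, 47.6 to 84.1) and in 19 of 50 low-UMI ductal-like cells (38.0%, 24.7 to 52.8, with 147 left out).

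At equal depth Rbpjl was again found most often in low-secretory cells. Thinned to 1000 UMIs, it was found in 43 of 46 low-secretory cells (93.5%, 82.1 to 98.6), in 5 of 31 high-secretory cells (16.1%, 5.45 to 33.7), in 0 of 50 low-UMI ductal-like cells (up to 7.11%) and in 4 of 278 cells of other classes (1.44%, 0.393 to 3.64). The 147 ductal-like cells below 1000 UMIs were left out. They held all 9 low-UMI ductal-like cells with Rbpjl, so the 0 of 50 was fixed by that exclusion. Thinned to 500 UMIs with no cell left out, Rbpjl was found in 3.55% of low-UMI ductal-like cells (1.44 to 7.18). Other classes gave 1.47% (0.635 to 2.87), an interval that overlaps. At 1000 UMIs Nr5a2 was found in 8 of 28 high-UMI ductal-like cells (28.6%, 13.2 to 48.7). It was found in 2 of 46 low-secretory cells (4.35%, 0.531 to 14.8), and these intervals overlap.

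**Figure D5:**
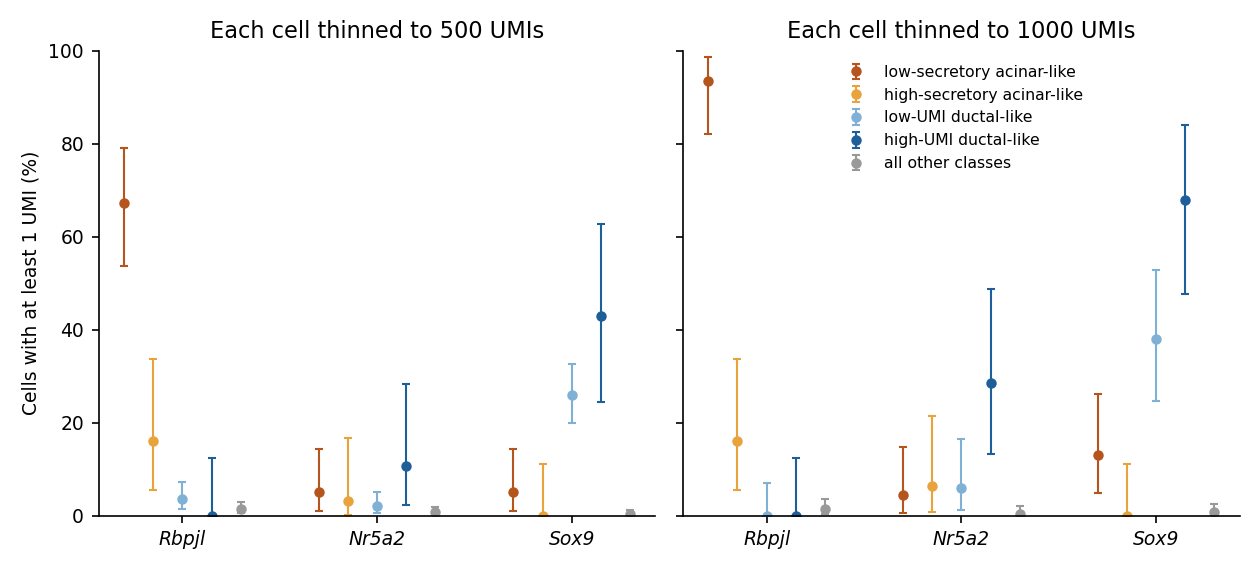
Share of EYFP positive cells with at least 1 UMI of Rbpjl, Nr5a2 or Sox9 after each cell was thinned to 500 (left) or 1000 (right) UMIs, with exact 95% intervals. At 1000 UMIs Rbpjl is found in 93.5% of low-secretory acinar-like cells and Sox9 in 67.9% of high-UMI ductal-like cells.

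In the EYFP negative library the factors sat in few cells. Its 1 acinar-like cell had 5307 UMIs, 81.6% of them secretory, and 0 UMIs of all 7 factors. Its 2 ductal-like cells held 179 and 14 Sox9 UMIs, 16 and 3 Nr5a2 UMIs, and 3 and 0 Onecut2 UMIs, and both thus counted as co-detected through Nr5a2. The other 550 cells held 1 Bhlha15, 2 Nr5a2 and 2 Sox9 UMIs.

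Between libraries, Sox9 was 8.86-fold higher in EYFP positive cells (356 against 40.1 CPM, 7.59 to 10.4), and 103-fold (63.1 to 181) without the barcodes found in both libraries. Nr5a2 was 13.2-fold higher (8.36 to 22.0), and 53.1-fold (22.3 to 166) without them. Onecut2 was 12.4-fold higher (3.70 to 64.8), and at least 11.8-fold without them. Like that of Rbpjl, these folds mix the level in each cell with the number of cells sorted, here 225 and 2 ductal-like cells. Within ductal-like cells Sox9 stood at 1121 CPM in the EYFP positive library (1050 to 1195) and at 2319 CPM in the EYFP negative one (2003 to 2670). Without the shared barcodes it stood at 1121 CPM and, in the 1 cell left, at 1118 CPM (611 to 1875). Nr5a2 within ductal-like cells stood at 162 CPM (136 to 192) and 228 CPM (137 to 356). Bhlha15 was 56.6-fold higher (9.46 to 2305), Ptf1a at least 18.3-fold and Gata4 at least 2.36-fold. Over 13282 genes with at least 10 UMIs, 26.8% were at least 2-fold higher in the EYFP positive library and 8.06% at least 2-fold lower, and the 6 factors past that minimum were all higher. Between acinar-like and ductal-like cells, 9.5% of 9297 genes were at least 2-fold higher and 50.2% at least 2-fold lower in acinar-like cells. There Rbpjl, Bhlha15 and Ptf1a were among the higher genes and Sox9, Nr5a2 and Onecut2 among the lower ones.

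Unlike Rbpjl and Ptf1a, neither Rbpj nor any E protein measured was at least 2-fold higher in acinar-like cells. Of the E proteins Tcf3, Tcf12 and Tcf4 and the Notch factor Rbpj, 0 of 4 were at least 2-fold higher than in ductal-like cells. Of the same 4, 1 was at least 2-fold lower. Over all genes 9.5% were higher and 50.2% lower, and 4 genes are too few to be set apart from these shares. Their median log2 fold was 0.32, against -1.02 over all genes. Rbpj gave 7 UMIs in acinar-like and 46 in ductal-like cells, 0.476 times (0.181 to 1.06). Tcf4 gave 51 and 88 UMIs, a fold of 1.81 (1.26 to 2.59), and Tcf12 28 and 59 UMIs, a fold of 1.48 (0.911 to 2.37). Tcf3 gave 8 and 24 UMIs, a fold of 1.04 (0.405 to 2.40). Between libraries 1 of the 4, Tcf4, was at least 2-fold higher in EYFP positive cells (2.30, 2.03 to 2.60), beside 26.8% of all genes.

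Of 15 other pancreatic epithelial factors measured, 2 were at least 2-fold higher and 11 at least 2-fold lower in acinar-like cells, beside 9.5% and 50.2% of all genes. Their median log2 fold was -2.75, against -1.02 over all genes. The higher ones were Xbp1 and Mecom, the latter named after its value was seen (6.38-fold, 3.92 to 10.6). All 53 acinar-like Mecom UMIs lay in the low-secretory cluster (371 CPM, 278 to 486), against 0 in the high-secretory one. Xbp1, which drives the unfolded protein response and the secretory machinery, was 2.74-fold higher in acinar-like cells (2.02 to 3.71). Hes1, a Notch target, gave 14 UMIs in acinar-like and 432 in ductal-like cells, 0.101 times (0.0550 to 0.172). Sox4 gave 18 and 384 UMIs, 0.147 times (0.0860 to 0.235). Ehf, an epithelial ETS factor, gave 3 and 399 UMIs, 0.0235 times (0.00483 to 0.0692).

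Of 7 Notch pathway genes measured in this comparison 1 was at least 2-fold higher and 5 were at least 2-fold lower in acinar-like cells, Hes1 and Rbpj among the lower. Their median log2 fold was -1.23, near the -1.02 of all genes, of which 50.2% were lower. The receptors Notch1 and Notch2 gave 6 and 4 UMIs in acinar-like cells, 0.427 times (0.149 to 1.00) and 0.181 times (0.0481 to 0.486) the ductal-like level. Of 3 islet factors measured 0 were higher and 1 was lower. Isl1 and Pax6 gave 0 UMIs in acinar-like cells against 22 and 11 in ductal-like cells, which include the barcode rich in Ppy, whose part in these counts was not tested. Nkx2-2 gave 4 and 19 UMIs. The higher Notch pathway gene was Lfng, named here after its value was seen, with 9 and 3 UMIs.

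Of the measured genes that the acinar factors are known to drive, 1, Rab27b, was at least 2-fold lower in acinar-like cells. All 35 measured secretory genes were at least 2-fold higher in acinar-like cells, by 24.7-fold for Ctrb1 (23.6 to 25.9), 30.4-fold for Cela1 (28.1 to 32.9), 21.0-fold for Prss2 (19.6 to 22.6) and 12.2-fold for Clps (11.5 to 12.9). These genes helped to define the clusters, so their direction is no result. Of 6 measured genes of regulated secretion downstream of Bhlha15, 3 were higher and 1 was lower, beside 9.5% and 50.2% of all genes. Their median log2 fold was 0.80, against -1.02 over all genes. Rap1gap was 3.18-fold higher (2.18 to 4.65). The other higher genes, named after their values were seen, were Cckar (44 and 0 UMIs, at least 45.9-fold) and Rab26 (13 and 1 UMIs). Rab27b gave 12 and 175 UMIs, 0.215 times (0.109 to 0.384). Rab3d (0.948, 0.417 to 1.97) and Gjb1 (0.569, 0.231 to 1.22), a small GTPase of secretory granules and a gap junction protein, were past neither bound. Of 18 ductal and metaplastic genes 1 was higher and 16 were lower in acinar-like cells, with a median log2 fold of -4.00. The higher one was Tff2, a mucosal peptide named after its value was seen, with 713 and 122 UMIs (18.3-fold, 15.1 to 22.3), 684 of the former in the high-secretory cluster. Spp1 (0.0171 times), Clu (0.0495 times) and Krt18 (0.0580 times) also served to name clusters, and Vim was 0.475 times as high (0.277 to 0.774).

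Likeness to each factor was measured over the 860 kept EYFP positive cells by Pearson r of log1p(counts per 10000), among 9429 genes found in at least 20 cells. The genes most like Rbpjl were Sel1l (r = 0.72), a component of endoplasmic reticulum-associated degradation, Ctrc (0.67), Slc38a3 (0.65), an amino acid transporter, Col7a1 (0.65) and Nupr1 (0.64). For Bhlha15 they were Tle6 (0.52), Nphs1 (0.46), Slc38a3 (0.45), Rbpjl (0.45) and Sel1l (0.43). For Ptf1a they were Slc7a8 (0.44), Pclo (0.43), Ghr (0.41), Rbpjl (0.40) and Slc7a2 (0.40). For Sox9 they were Spp1 (0.50), Krt18 (0.48), Tm4sf4 (0.47), Clu (0.46) and Dcdc2a (0.46). For Nr5a2 they were Bche (0.39), Fat1 (0.39), Cldn8 (0.39), Cxadr (0.38) and Myrf (0.36). Nr5a2 had an r of 0.27 with Sox9 and 0.11 with Rbpjl. These cells share a library and differ widely in depth, so the values are descriptions.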

How the data were processed

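Single-cell libraries of EYFP positive and EYFP negative cells (1 each) were made with a Chromium Single Cell 5′ kit, version 1.1, each on its own lane, per the labels' protocols. The authors deposited raw UMI counts, as whole numbers for each gene in each barcode. Per the submitters' processing notes Cell Ranger 2.1.0 and GRCh38 were used, whereas the file headers give software version 3.1.0 and the genes carry mouse Ensembl IDs, so the upstream version and build are not settled. Whether counting used strand is not given in the sources used here. Coordinates are GENCODE gene models on GRCm38, used only to place the genes.

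Barcodes that had 200 or more genes and no more than 20% of UMIs from mitochondrial genes were kept. The libraries were clustered jointly in scanpy 1.11.5: counts scaled to 10000 per cell, log1p, 2000 variable genes, 30 principal components, 15 neighbours, Leiden resolution 1.0. The 7 factors were left out of clustering and naming. A cluster took the class whose markers had the highest mean log2 fold over the median of the other clusters. At least 3 of those markers, with 5 or more UMIs each, had to be at least 2-fold above that median. A name was withdrawn where another class had more markers among the cluster's 10 leading genes. It was also withdrawn where a shallow cluster had none of its class's markers among them. This rule was written after clusters of these data had been seen. Scrublet marked 2 EYFP positive and 5 EYFP negative kept barcodes as doublets, which stayed in.

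Levels are a gene's share of summed UMIs scaled to 1000000 (CPM) with exact Poisson intervals, shares have Clopper-Pearson intervals and folds conditional binomial intervals, all at 95%. Against a count of 0 a fold is a bound from a floor of 3 UMIs over the group. CPM values of that floor are not exact limits. A gene was called at 2-fold with at least 10 UMIs over both groups. With 1 library per group no test was run. The fold and interval code was tested on simulated data. The members and gene lists were chosen with earlier results of these data known. Genes named are the 7 factors, the E proteins given above, Rbpj, and the 4 genes of each list with the most UMIs over both libraries. The 5 genes most like each factor with at least 30 UMIs are also named. A gene that this rule names is not reported here. Alternatives were other filters, resolutions, denominators, call limits, thinning, and leaving out clusters or barcodes.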

Additional observations from a re-analysis of the deposited data

Results flagged for a closer look

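Factor RNA was also found in EYFP positive barcodes that had been left out by the filters. The 857 barcodes that were not kept held 164 Rbpjl UMIs, against 1 in the 192 EYFP negative barcodes not kept. Of these, 143 lay in 41 of the 336 barcodes over the mitochondrial limit (188 CPM, 158 to 221), with up to 22 in a barcode. The same 857 barcodes held 100 Sox9 UMIs, 96 of them in 19 barcodes over the mitochondrial limit, with up to 53 in a barcode. Barcodes under the gene limit alone held 21 Rbpjl and 4 Sox9 UMIs.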

How the results depend on the processing

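Of 309 alternative values for 50 results, 222 stayed within the counting interval or within 1.5 times the count, 86 moved and 1 reversed. The fold of Rbpjl in acinar-like over ductal-like cells (151) became 1310 with a stricter filter (500 genes, 10% mitochondrial UMIs), 310 with each library clustered by itself and 35.05 as a mean over cells. Under that filter a cluster of 67 EYFP positive cells led by Spp1, Clu and Krt18 was left unnamed, with acinar markers scoring best. Only a cluster with 28 EYFP positive cells was then named ductal, so the stricter-filter folds cover other cells. Unnamed clusters led by Spp1 and Clu also split off at resolution 2.0 (52 cells) and in the EYFP positive library by itself (60 cells). In that library by itself a cluster of 46 cells led by Trbc2 and Lef1 was named acinar. At resolution 0.5 the only cluster named acinar had 58 cells, and a T-named cluster had Pnliprp1 among its leading genes. The values from these settings thus cover other cells too. Without 1 cluster the Rbpjl fold was 1203 (low-UMI ductal-like), 17.67 (low-secretory) or 46.16 (high-UMI ductal-like). The fold of Sox9 in ductal-like over acinar-like cells (10.3) became 19.13 with the stricter filter, 5.885 at resolution 0.5, 6.675 with each cell classed from its own markers, 7.025 without secretory, mitochondrial and ribosomal protein genes in the total, and 17.6 without the barcode of each class richest in Sox9. Without 1 cluster it was 5.923 (high-secretory), 69.97 (low-secretory) or 4.61 (high-UMI ductal-like). The same fold of Nr5a2 (2.90) became 1.468 as a mean over cells and 10.15 without the low-secretory cluster, and reversed to 0.6915 without the high-UMI ductal-like cluster. Between libraries the Rbpjl bound (335) was a fold of 967.5 over every deposited barcode. Nr5a2 (13.2) became 22.35 as a mean over cells, 54.75 without the richest EYFP negative barcode and 53.06 without shared barcodes. Sox9 (8.86) became 7.263 over every barcode, 30.06 as a mean over cells, 106.5 without the richest EYFP negative barcode and 103.1 without shared barcodes.

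Barcodes with both kinds of factor (51) numbered 26 at 2 or more UMIs, 7 and 13 after thinning to 500 and 1000 UMIs, 23 without the high-UMI ductal-like cluster and 21 with Nr5a2 not counted. The 14 acinar-like ones became 2, 2 and 5 under the same UMI minimum and thinnings, and 2 without the low-secretory cluster. The 35 ductal-like ones became 5 and 8 after thinning, 7 without the high-UMI cluster and 5 with Nr5a2 not counted. The cause was not tested. Higher Notch pathway genes between libraries numbered 7, and 3 at 30 UMIs or more, and lower ones between classes 5, and 3 at 4-fold. Leaving out clusters or shared barcodes, and not counting Nr5a2, were chosen after seeing the data. No paired analysis was possible because each group is 1 library. Depth limits Gata4 and Onecut2, with 4 and 21 kept EYFP positive UMIs.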
